A study of Mus musculus with 10 samples.

Results

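Neuropeptide precursor transcripts were measured for 10 genes, Npy, Sst, Cck, Vip, Penk, Pdyn, Tac1, Pomc, Cartpt and Adcyap1, taken by gene symbol from a count table of 56748 genes. Each of the 10 symbols matched 1 row, so no member was left out. Counts came from poly-A selected RNA-seq of 5 sorts of brain cells positive for CD11b, each of 400000 cells and called microglia in the labels, and of 5 hemi brain samples, which the labels call bulk brain. All samples were from young male mice of the C57BL/6 strain under standard husbandry, with no treatment, transgene or deletion named in either group and the same batch value, 1. CD11b is a surface protein of myeloid cells in general, so the sort selects on that protein and not on a gene unique to microglia. Whether each sample is a separate animal is not said in the labels, so every p-value rests on a spread between samples that may be technical.

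Neuropeptides are short signalling peptides that neurons cut from larger precursor proteins. Prohormone convertases cleave the precursors at pairs of basic amino acids, carboxypeptidase E trims the ends, and the products are stored in dense-core vesicles and act mostly on G protein-coupled receptors. In the brain these genes are known as markers of neuron classes, such as Sst and Vip in cortical interneurons, Penk, Pdyn and Tac1 in striatal projection neurons, and Pomc and Cartpt in the arcuate nucleus of the hypothalamus.

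The coding sequences show how the 3 opioid precursors among the 10 genes are built, and they are given for that reason. The opioid core Tyr-Gly-Gly-Phe was searched in frame in the longest open reading frame found among the GENCODE vM21 transcripts of each gene. Capitals mark the 4 codons of the core, with the 2 codons before it and the 3 after it in lower case.
Penk, core 1: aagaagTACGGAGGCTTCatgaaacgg
Penk, core 6: aagaggTATGGGGGCTTCctgaagcgc
Pdyn, core 1: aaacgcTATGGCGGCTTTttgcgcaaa
Pdyn, core 3: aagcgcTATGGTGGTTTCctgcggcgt
Pomc, core 1: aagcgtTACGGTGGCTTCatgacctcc
Penk held 7 such cores, of which 6 were followed by a methionine codon, as in Met-enkephalin, and 1 by a leucine codon, as in Leu-enkephalin. Pdyn held 3 cores, all followed by leucine. Pomc held 1, followed by methionine, which is the start of beta-endorphin. A pair of basic codons, for lysine or arginine, stood directly before all 11 cores. The other 7 genes held 0 cores.

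Sst and Cartpt are shown because their promoters hold a full cAMP response element, the palindrome TGACGTCA that CREB binds, which is a textbook feature of the Sst promoter. The 250 bases before each annotated start were read from the RefSeq promoter table of build GRCm38.p6, in which 9 of the 10 genes were matched. Capitals mark the element, and both stretches lie on the minus strand, at chr16:23890859-23890918 for Sst and chr13:99900762-99900821 for Cartpt.
Sst: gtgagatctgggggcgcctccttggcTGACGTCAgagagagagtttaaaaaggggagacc
Cartpt: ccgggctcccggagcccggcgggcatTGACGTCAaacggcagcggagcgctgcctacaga
The element began 48 bases before the start site in Sst and 112 bases before it in Cartpt. The same letters stood in 508 of all 32851 promoters of the table, or 1.55%. The half-site TGACG, on either strand and including the full elements, stood in 6 of the 9 genes (Adcyap1, Cartpt, Cck, Sst, Tac1 and Vip). Counted by promoter, it stood in 7 of the 11 promoters of these 9 genes and in 17.8% of all promoters. A match describes the letters in this window and shows nothing about binding.

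Totals were 25087489 to 28514509 counts per microglia library and 25845049 to 34709215 counts per bulk brain library. The summed level of 10 microglia markers, among them Itgam, which encodes CD11b, was 34123 to 35430 CPM (counts per 1000000 counts of the scaled library) in the sorted cells and 248 to 279 CPM in bulk brain. Bulk brain replicates 1 and 2 stood apart from replicates 3 to 5. The biological coefficient of variation, the spread between libraries beyond counting error, was 32.9% over all 5 bulk brain libraries, 6.55% over replicates 3 to 5, and 12.3% over the 5 microglia libraries. For the 10 genes, microglia shares, fold bounds and levels per length are therefore also given with replicates 3 to 5.

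All 10 neuropeptide transcripts were lower in sorted microglia than in bulk brain (10 of 10 called lower by edgeR's quasi-likelihood test at an adjusted p under 0.05), and for all 10 the highest microglia library lay below the lowest bulk brain library. Of the 18969 genes tested, 43.9% were called lower and 37.2% higher, and 40.5% had all microglia libraries below all bulk brain libraries. Npy, Vip, Tac1 and Cartpt, with 0 counts in microglia, passed the low-count filter through bulk brain alone and could only be called lower. The median fitted log2 difference of the 10 genes was -10.80, against -0.14 for all genes tested. Taken from ratios of mean CPM, with genes at 0 counts set to their floor, the median of the 10 genes was -10.05. The 10 genes summed to 1.03, 1.32, 1.81, 2.31 and 0.750 CPM in microglia replicates 1 to 5 and to 715, 1113, 430.1, 423 and 433 CPM in bulk brain replicates 1 to 5. The mean sum was thus 1.44 ± 0.622 CPM (SD, n = 5) in microglia and 623 ± 301 CPM (SD, n = 5) in bulk brain. The 10 genes stayed lower with bulk brain replicates 3 to 5 alone. In bulk samples, fewer cells of a type and less RNA per cell cannot be told apart.

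**Figure D1:**
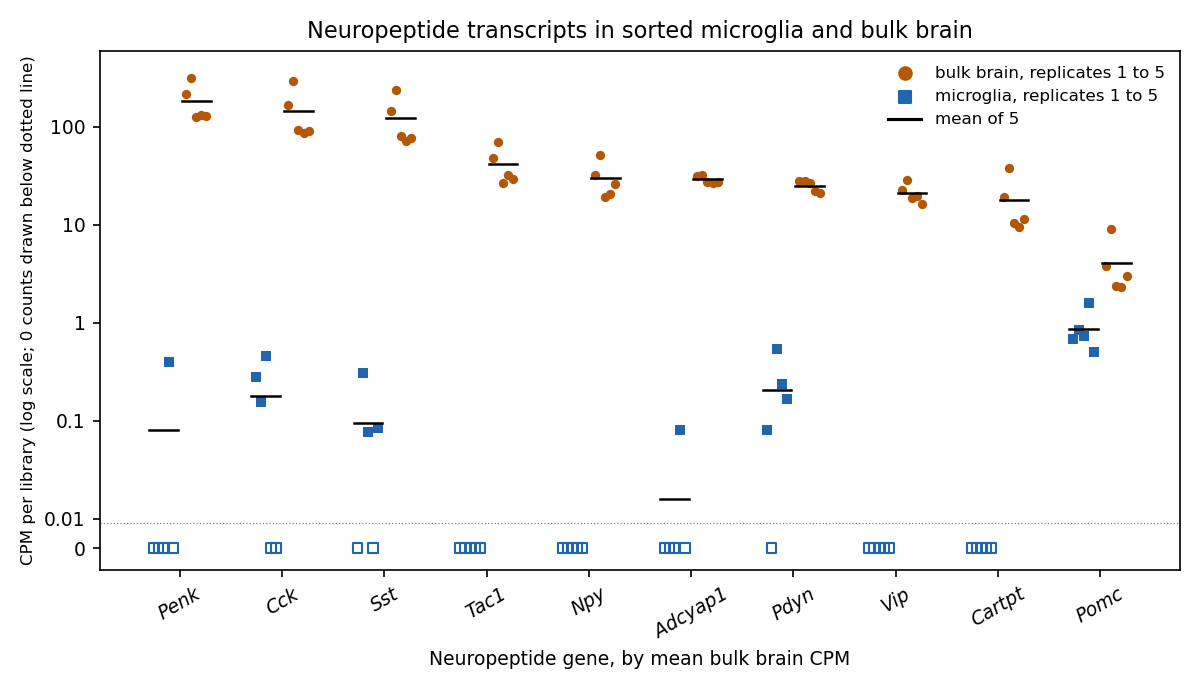
CPM (log axis) of the 10 neuropeptide genes in each of the 5 microglia (blue squares) and 5 bulk brain (orange circles) libraries, with black bars for means and open squares below the dotted line for libraries with 0 counts. For every gene all bulk brain points lie above all microglia points, and Pomc is the gene with the smallest gap, 0.871 against 4.09 CPM on average.

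Penk, Cck and Sst were the most abundant of the 10 and made up 72.8% of their summed CPM in bulk brain. Penk (ENSMUSG00000045573, chr4:4133531-4138819 on the minus strand of GRCm39, as are all gene positions here) encodes proenkephalin, the source of the enkephalins. Its bulk brain levels were 216, 319.7, 126, 131 and 130.4 CPM in replicates 1 to 5, and its microglia levels were 0, 0, 0, 0.398 and 0 CPM. All 10 of its microglia counts thus came from replicate 4. The log2 difference of Penk was -11.11 ± 0.70 (SE, edgeR adjusted p = 2.8e-08), and without microglia replicate 4 the fitted value was -15.43, with 0 microglia counts behind it. The microglia level of Penk was 0.0431% of bulk brain, and 0.0616% of replicates 3 to 5. Penk overlaps an antisense gene, A830012C17Rik, over 499 bases, and the strand setting of the counting is not given in the sources used here. That gene held 15 counts in bulk brain, which is 0.0475% of those of Penk, and 0 in microglia.

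Cck (ENSMUSG00000032532, chr9:121318890-121324760, minus strand) encodes cholecystokinin, a peptide of cortical and hippocampal neurons. Its bulk brain levels were 168, 294, 92.2, 86.1 and 91.0 CPM, and its microglia levels 0.278, 0.155, 0.463, 0 and 0 CPM (7, 4, 12, 0 and 0 counts). The groups were far apart, with a log2 difference of -9.62 ± 0.68 (SE, edgeR adjusted p = 7.8e-08) and a mean microglia level of 0.123% of bulk brain. That share was 0.2% against bulk brain replicates 3 to 5, and 0.0741% without microglia replicate 3. Sst (ENSMUSG00000004366, chr16:23708323-23709708, minus strand) encodes somatostatin, an inhibitory peptide of interneurons. Its bulk brain levels were 144, 239.9, 80.4, 71.9 and 76.9 CPM, and its microglia levels 0, 0.310, 0.0771, 0 and 0.0834 CPM, of which replicate 2 held 8 of 12 counts. The log2 difference of Sst was -10.27 ± 0.66 (SE, edgeR adjusted p = 3.3e-08), with microglia at 0.0768% of bulk brain. The share was 0.123% against bulk brain replicates 3 to 5, and 0.0327% without microglia replicate 2.

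Pdyn (ENSMUSG00000027400, chr2:129528485-129541764, minus strand) encodes prodynorphin, the source of the kappa receptor ligands. Its bulk brain levels were 28.3, 27.7, 26.6, 22.2 and 21.1 CPM, and its microglia levels 0.0795, 0, 0.540, 0.239 and 0.167 CPM (2, 0, 14, 6 and 4 counts). Microglia held 0.813% of the bulk brain level, after Pomc the second highest share of the 10, and the log2 difference was -6.91 ± 0.47 (SE, edgeR adjusted p = 5.9e-08). The Pdyn share was 0.879% against bulk brain replicates 3 to 5, and 0.481% without microglia replicate 3, which held 14 of its 26 counts. Adcyap1 (ENSMUSG00000024256, chr17:93506445-93513965, plus strand) encodes the precursor of PACAP, pituitary adenylate cyclase-activating polypeptide. Its bulk brain levels were 31.7, 32.6, 27.2, 26.6 and 27.3 CPM, and its microglia levels were 0 CPM in replicates 1, 2, 3 and 5 and 0.0796 CPM (2 counts) in replicate 4. The ratio of bulk brain to microglia was 1828 for Adcyap1, with a 95% counting interval of 506 to 15098 (edgeR adjusted p = 4.1e-10), and 1700 with bulk brain replicates 3 to 5.

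Npy, Vip, Tac1 and Cartpt had 0 counts in all 5 microglia libraries. A floor of 3 counts over the group, which a count of 0 allows, equals 0.0238 CPM, and folds against it are lower bounds for counting error only. Tac1 (ENSMUSG00000061762, chr6:7554879-7565834, plus strand), the source of substance P and neurokinin A, was at 48.5, 70.9, 27.1, 32.7 and 29.5 CPM in bulk brain, which is at least 1753-fold above this floor. Npy (ENSMUSG00000029819, chr6:49799690-49806487, plus strand), which encodes neuropeptide Y, was at 32.6, 52.2, 19.3, 20.6 and 26.3 CPM, or at least 1267-fold above it. Both genes thus allowed a microglia level of up to 0.0571% and 0.0789% of bulk brain. Vip (ENSMUSG00000019772, chr10:5589218-5597617, plus strand), which encodes vasoactive intestinal peptide, was at 22.9, 28.8, 18.7, 19.7 and 16.2 CPM there, or at least 892-fold above it. Cartpt (ENSMUSG00000021647, chr13:100034997-100037599, minus strand), which encodes the CART prepropeptide, was at 19.3, 38.4, 10.4, 9.56 and 11.5 CPM, or at least 749-fold above it. The upper limits for microglia were 0.112% of bulk brain for Vip and 0.134% for Cartpt, and the adjusted p of edgeR was 9.8e-07 for Npy, 8.4e-08 for Vip, 7.6e-07 for Tac1 and 1.2e-05 for Cartpt. With bulk brain replicates 3 to 5 the lower bounds were smaller, at least 1250-fold for Tac1, 925-fold for Npy, 764-fold for Vip and 440.2-fold for Cartpt.

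Pomc (ENSMUSG00000020660, chr12:4004951-4010642, plus strand), the precursor of ACTH, the melanocortins and beta-endorphin, was the only 1 of the 10 with counts in every microglia library. Its microglia levels were 0.676, 0.853, 0.732, 1.59 and 0.50 CPM (17, 22, 19, 40 and 12 counts), and its bulk brain levels 3.78, 9.01, 2.37, 2.35 and 2.97 CPM. The groups did not overlap, but the gap was narrow, since bulk brain replicate 4 at 2.35 CPM stood next to microglia replicate 4 at 1.59 CPM. The mean was 0.871 ± 0.423 CPM (SD, n = 5) in microglia and 4.09 ± 2.81 CPM (SD, n = 5) in bulk brain, a log2 difference of -2.23 ± 0.46 (SE, edgeR adjusted p = 0.00079) and a microglia level of 21.3% of bulk brain. Against bulk brain replicates 3 to 5 alone the log2 difference of Pomc was -1.71 (edgeR adjusted p = 0.00056) and the microglia level 34.0% of bulk brain. Pomc gave 110 of the 183 microglia counts of the 10 genes, and 60.3% of their summed CPM in microglia against 0.657% in bulk brain.

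Markers of the cells known for these peptides were measured beside them. All 12 pan-neuronal markers were lower in microglia, at a median of 0.147% of bulk brain and a range of 0.0394% to 11.0% (Elavl4, an RNA-binding protein of neurons), and their summed level was 18.1 to 29.4 CPM in microglia against 7190 to 7699 CPM in bulk brain. The median of the 10 neuropeptide genes was 0.0489% of bulk brain, and 9 of them were under 1%. That median enters Npy, Vip, Tac1 and Cartpt as 0%, although their upper limits of 0.0571% to 0.134% all lie above it. The pan-neuronal list held 0 genes with 0 counts in all microglia libraries, so the 2 medians are not directly comparable. The Pomc level of 21.3% was above that of each of the 12 pan-neuronal markers, but not above that of all markers of other cells. Shares reached 26.1% among 9 choroid plexus markers (lowest 11.5%), 25.7% among 8 astrocyte markers (Slc1a3) and 127% among 12 cortical and hippocampal excitatory neuron markers (Prox1), and the median of 9 endothelial and mural markers was 20.8%. Of 14 hypothalamic markers, 10 had 0 counts in all microglia libraries, including Avp, Pmch and Trh, and the list summed to 0.116 to 1.09 CPM in microglia, against 50.4 to 124 CPM in bulk brain. Of 11 pituitary markers, 8 had 0 counts in all microglia libraries, including Gh and Prl, and the list summed to 0.318 to 1.55 CPM in microglia, against 2.08 to 5.40 CPM in bulk brain. Only 3 of the 11 passed the low-count filter, and all 3 were lower. The microglia sum came mostly from Tbx19, which encodes a transcription factor of Pomc-expressing pituitary cells and stood at 0.886 CPM in the sorted cells and 0.0347 CPM in bulk brain and was not tested. The part of RNA from other cells in the microglia counts of the 10 genes was not tested.

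In bulk brain the order of the 10 genes per length was Sst, Penk, Cck, Npy, Cartpt, Tac1, Pdyn, Adcyap1, Vip and Pomc. This order holds for the gene length in the deposited table alone, which for some genes far exceeds that of the coding transcript read above. The lengths were 3399 against 1230 bases for Tac1, 3402 against 1530 for Vip and 1305 against 799 for Cck. Levels per kilobase of the gene length in the deposited table were 170.1 ± 99.7 CPM per kb (SD, n = 5) for Sst, 113 ± 51.6 for Penk, 112 ± 68.4 for Cck and 53.3 ± 23.6 for Npy. The remaining genes were at 14 ± 9.5 CPM per kb for Cartpt, 12.3 ± 5.39 for Tac1, 8.73 ± 1.15 for Pdyn, 7.71 ± 0.751 for Adcyap1, 6.25 ± 1.42 for Vip and 3.11 ± 2.13 for Pomc. Only Npy and Cartpt, neighbours in this order, had ranges over the 5 libraries that did not overlap. The order of the other neighbours did not exceed their spread over libraries, although within a library Sst was above Penk and Cck was above Npy in 5 of 5, and Penk was above Cck in 4 of 5. Over replicates 3 to 5 alone (n = 3) the levels were 106 ± 5.90 CPM per kb for Sst, 79.1 ± 1.80 for Penk, 68.8 ± 2.48 for Cck and 38.9 ± 6.56 for Npy, with no overlap between neighbours down to Tac1. There Tac1 at 8.75 ± 0.825 stood above Cartpt at 8.21 ± 0.764 and Pdyn at 8.08 ± 1.02, whose ranges overlapped, followed by Adcyap1 at 7.16 ± 0.0965, Vip at 5.35 ± 0.538 and Pomc at 1.94 ± 0.270 CPM per kb.

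All 10 genes were higher in bulk brain replicates 1 and 2 than in each of replicates 3 to 5. The ratio of the mean of replicates 1 and 2 to that of replicates 3 to 5 was 2.75 for Cartpt, 2.57 for Cck, 2.51 for Sst, 2.50 for Pomc, 2.07 for Penk, 2.01 for Tac1 and 1.92 for Npy. It was smaller for Vip at 1.42, Pdyn at 1.2 and Adcyap1 at 1.19. The coefficient of variation (CV) over the 5 libraries accordingly ran from 9.74% for Adcyap1 to 68.6% for Pomc, with a median of 45.0%, while over replicates 3 to 5 it ran from 1.35% for Adcyap1 to 16.9% for Npy, with a median of 9.37%. Among the 11633 protein-coding genes that reached 5 CPM in bulk brain, the median CV over the 5 libraries was 20.3%, and 43.2% were higher in replicates 1 and 2 than in replicates 3 to 5.

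**Figure D2:**
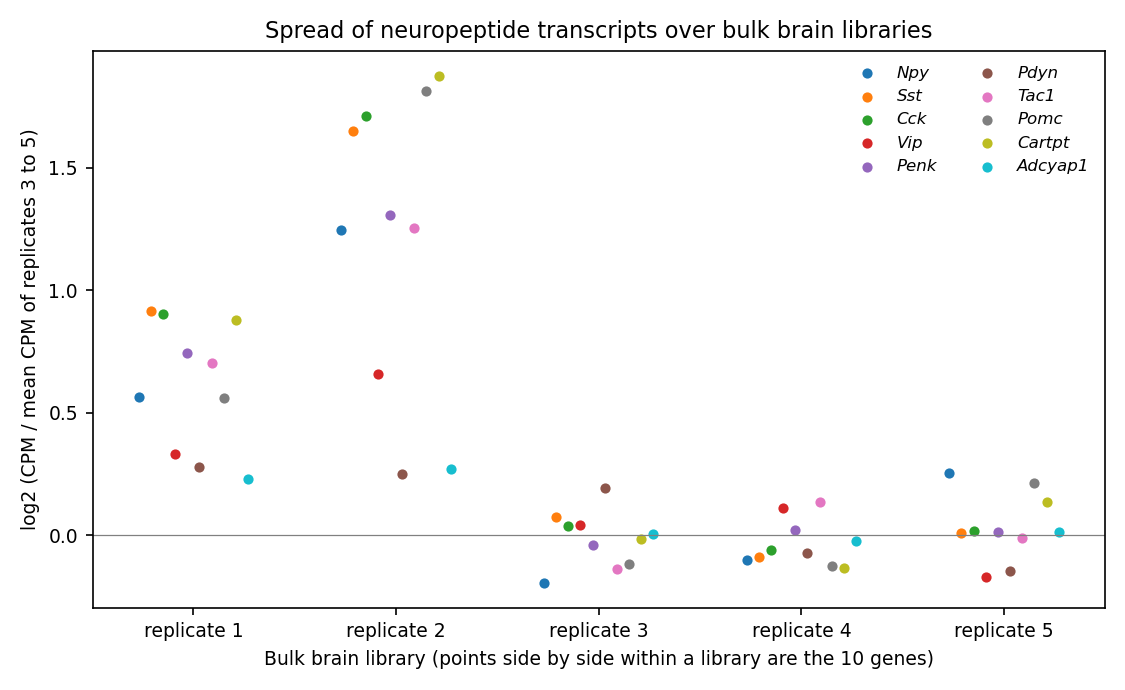
Level of each of the 10 genes in each bulk brain library as log2 of its CPM over the mean CPM of replicates 3 to 5. All 10 points lie above 0 in replicates 1 and 2, highest for Cartpt in replicate 2, while Pdyn and Adcyap1 stay nearest to 0 there.

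Gene length moved with this difference. Coding genes under 1500 bases had a median ratio of replicates 1 and 2 to replicates 3 to 5 of 2.11 (526 genes, 95.4% higher in replicates 1 and 2), and those of 1500 to under 3000 bases 1.56 (2103 genes, 84.8%). Genes of 3000 to under 6000 bases had a median ratio of 1.08 (4695 genes, 46.6% higher), and genes of 6000 bases and over 0.711 (4309 genes, 12.7% higher). The 10 neuropeptide genes are short, from 566 bases for Npy to 3777 for Adcyap1, and the 3 longest, Tac1, Vip and Adcyap1, fall in the class of 3000 to under 6000 bases. For Tac1 and Vip, class and percentile rest on the deposited length, as their coding transcripts read above held 1230 and 1530 bases. Set among coding genes of its own class, the ratio of Tac1 stood at the percentile 97.7, Cartpt at 91.3, Penk at 87.4, Cck at 84.0, Vip at 80.2, Sst at 79.3 and Pomc at 78.5, with Adcyap1 at 61.6, Npy at 34.2 and Pdyn at 18.5. Pdyn and Npy were therefore less raised in replicates 1 and 2 than most genes of their length class. The classes are wide and the ratio falls with length, so a percentile also depends on the place within the class. Pdyn, at 2887 bases, lies near the upper bound of its class, and Penk, at 1634, and Tac1, at 3399, lie near the lower bound of theirs. The part of gene length in the spread of these genes was not tested.

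**Figure D3:**
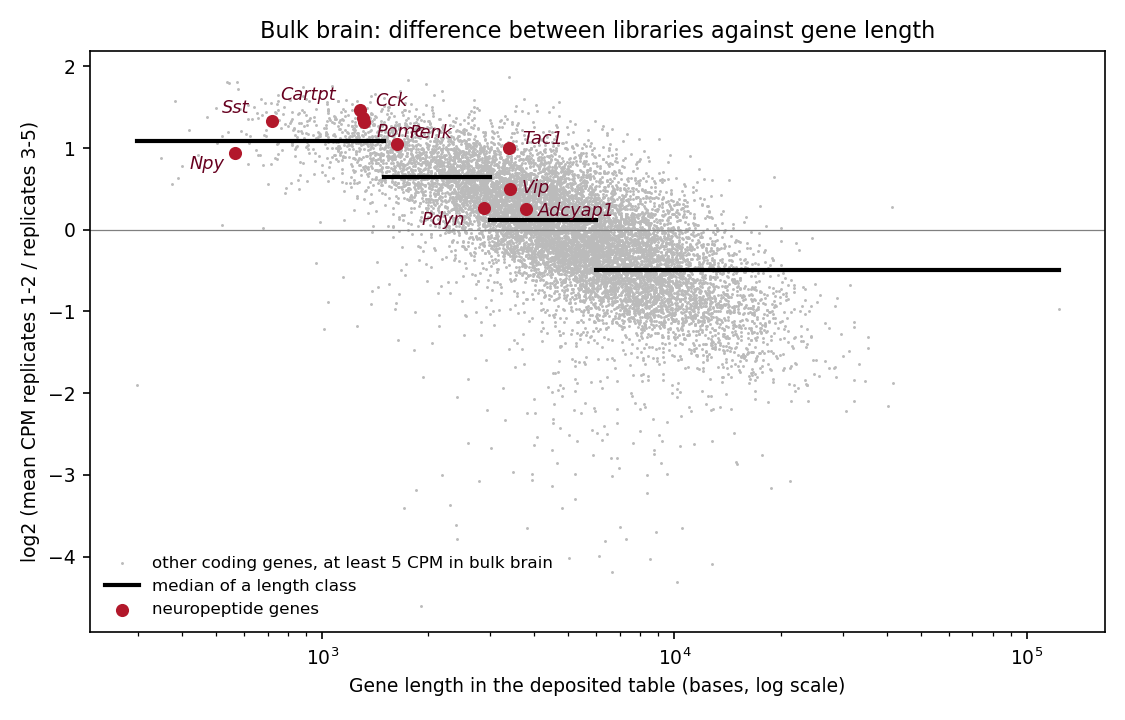
Log2 ratio of mean CPM in bulk brain replicates 1 and 2 to that in replicates 3 to 5 against gene length in bases (log axis), for coding genes that reached 5 CPM (grey) and the 10 neuropeptide genes (red), with the median of each length class as a black bar. The ratio falls with length, and 8 of the 10 red points lie above the bar of their class, Npy and Pdyn below it.

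Markers of brain regions and cell types did not all move the same way between these libraries. The hypothalamic list was at 83.7 and 124 CPM in bulk brain replicates 1 and 2 and at 50.4, 60.8 and 53.3 CPM in replicates 3 to 5. The cerebellar list was at 2134 and 1781 CPM in replicates 1 and 2 and at 2872, 2787 and 2761 CPM in replicates 3 to 5. Of 12 cerebellar markers, 4 were higher in both replicates 1 and 2 than in replicates 3 to 5, and 5 were lower. The pan-neuronal list spanned 7190 to 7699 CPM in all 5. Neuron classes named above as sources of these peptides differed in direction. The summed CPM of striatal projection neuron and of GABA interneuron markers was lower in replicates 1 and 2. That of cortical and hippocampal excitatory neuron markers was higher, at 1568 and 1968 CPM against 1389, 1460 and 1542 CPM in replicates 3 to 5. Single genes of these lists were split. Of 12 striatal markers, 5 were higher in both replicates 1 and 2 than in replicates 3 to 5, and 4 were lower. Of 16 GABA interneuron markers, 6 were higher and 5 lower, and of 12 excitatory neuron markers, 6 were higher and 3 lower. Striatal projection neuron markers were at 846 and 896 CPM in replicates 1 and 2 and at 955, 978 and 1009 CPM in replicates 3 to 5. GABA interneuron markers were at 1943 and 1979 CPM against 2055, 2036 and 2041 CPM. Lists of non-neuronal cells differed in direction. Summed choroid plexus markers were higher in replicates 1 and 2, at 1051 and 1325 CPM against 662, 636 and 599.7 CPM. Of these 9 markers, 2 were higher in both replicates and 3 were lower. Oligodendrocyte markers were also higher, at 7291 and 7813 CPM against 5886, 5788 and 5831 CPM. Summed astrocyte markers were lower, at 3760 and 3554 CPM against 4534, 4599 and 4605 CPM. Of these 8 markers, 3 were higher in both replicates and 4 were lower. Of 9 endothelial and mural markers, 7 were lower in both replicates 1 and 2, and 2 were higher. The hypothalamic list includes short peptide genes, such as Avp at 577 bases and Oxt at 537 bases, beside genes for transcription factors. In these values region and gene length cannot be told apart.

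Likeness between genes over the 5 bulk brain libraries was taken as the root mean square difference of log2 CPM, each gene centred on its mean. Pomc, under 5 CPM in bulk brain, was left out. Of the 36 pairs of the other 9 genes, Sst and Cck were the closest at 0.03. Among the 11632 other coding genes that reached 5 CPM, the single nearest was Rpl31 for Npy (0.03), Rpl30 for Sst (0.02), Ndufa11 for Cck (0.02), Nagk for Penk (0.01) and Nectin2 for Tac1 (0.02). It was Uqcrq for Cartpt (0.04), Slc39a11 for Vip (0.03), Rcc1 for Pdyn (0.02) and Ddx49 for Adcyap1 (0.01).

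Of 25 neuropeptide receptors, 20 were tested, of which 19 were lower and 1 was higher in microglia. That is 95% lower, against 43.9% of all genes tested. Their median log2 difference was -9.03, or -8.34 with genes at 0 counts set to their floor. Of the 20, 9 had 0 counts in all microglia libraries. Those 9 passed the low-count filter through bulk brain alone and could only be called lower. The higher one was Vipr1, a receptor for vasoactive intestinal peptide and PACAP, at 23.8, 26.7, 27.6, 25.1 and 23.0 CPM in microglia, against 17.1, 13.0, 13.7, 14.6 and 16.9 CPM in bulk brain. All 5 microglia libraries lay above all bulk brain libraries for Vipr1, with a log2 difference of 0.74 ± 0.12 (SE, edgeR adjusted p = 9.7e-05). The receptor for PACAP, Adcyap1r1, was the most abundant receptor in bulk brain at 235 ± 24.8 CPM and was at 0.434 ± 0.423 CPM in microglia (SD, n = 5 each). The nociceptin receptor Oprl1 was at 0.0818 CPM in microglia against 52.3 CPM in bulk brain, and the cholecystokinin receptor Cckbr at 0.0788 against 26.1 CPM. The neuropeptide Y receptor Npy2r, the tachykinin receptor Tacr1, the somatostatin receptor Sstr2 and the melanocortin receptor Mc4r were among the 11 of 25 with 0 counts in all microglia libraries. The kappa opioid receptor Oprk1, at 10.3 CPM in bulk brain, held 0.155% of that level in microglia. Oprm1 and Sstr4 did not pass the low-count filter and were not tested. Oprm1, the mu opioid receptor, was at 0.411 and 0.173 CPM in bulk brain replicates 1 and 2 and at 6.51, 6.98 and 7.51 CPM in replicates 3 to 5. That is the opposite order to the 10 peptide genes, but Oprm1 is longer, at 8037 bases. Coding genes of 6000 bases and over that reached 5 CPM had a median ratio of 0.711. Of the 20 receptors tested, 7 were lower in both replicates 1 and 2 than in replicates 3 to 5, and 1 was higher.

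Of 21 genes for precursor processing and dense-core vesicles, all tested, 18 were lower, 2 were higher and 1 did not pass the test, with a median log2 difference of -8.69. That is 85.7% lower, against 43.9% of all genes tested. The neuroendocrine convertases Pcsk1 and Pcsk2 were at 0.109 and 0.181 CPM in microglia against 46.3 and 249 CPM in bulk brain. Carboxypeptidase E, Cpe, was the most abundant of the list in bulk brain at 1882 ± 396 CPM and was at 6.87 ± 4.85 CPM in microglia (SD, n = 5 each), or 0.365%. The granins Scg2 and Chgb, which are cargo of dense-core vesicles, stood at 0.0292% and 0.0591% of bulk brain. The higher genes were the broadly expressed convertases Furin and Pcsk7. Furin was at 108 ± 5.63 CPM in microglia, against 33.6 ± 3.49 CPM in bulk brain (SD, n = 5 each), a log2 difference of 1.68 ± 0.10 (SE, edgeR adjusted p = 1.2e-08). Pcsk7 was at 55.6 ± 3.37 against 20.6 ± 1.58 CPM (SD, n = 5 each), a log2 difference of 1.43 ± 0.09 (SE, edgeR adjusted p = 4.2e-08), and it overlaps Rnf214 on the other strand over 415 bases. Carboxypeptidase D, Cpd, did not pass the test, at 105 CPM in microglia, against 92.0, 76.8, 157, 165 and 160 CPM in bulk brain replicates 1 to 5 (adjusted p = 0.17), and was called lower against replicates 3 to 5 alone (log2 -0.78, edgeR adjusted p = 4.1e-09).

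Of 16 peptide-degrading enzymes, 8 were lower, 4 were higher and 4 did not pass the test, with a median log2 difference of -0.74. These shares, 50% lower and 25% higher, lie near the 43.9% and 37.2% of all genes tested, and with bulk brain replicates 3 to 5 alone 12 were lower and 4 higher. Prcp, a lysosomal prolylcarboxypeptidase that inactivates the Pomc product alpha-MSH, was at 176 ± 7.47 CPM in microglia, against 8.47 ± 1.36 CPM in bulk brain (SD, n = 5 each), a log2 difference of 4.38 ± 0.13 (SE, edgeR adjusted p = 5.6e-11). The lysosomal peptidase Tpp1 was at 433 against 66.8 CPM (log2 2.70, edgeR adjusted p = 1.4e-09), the lysosomal dipeptidyl peptidase Dpp7 at 45.4 against 23.5 CPM (log2 0.95, 3.7e-05), and Lnpep, an aminopeptidase that cleaves oxytocin, at 497 against 187 CPM (log2 1.41, 8.7e-04). Neprilysin, Mme, which cleaves enkephalins and substance P, was lower, at 0.0154 against 15.1 CPM. Dpp4, Prep, Nln and Ide did not pass the test, and against bulk brain replicates 3 to 5 alone all 4 were called lower, with log2 differences of -1.02, -0.21, -0.21 and -0.65. Prep was called higher instead against replicates 1 and 2 alone (log2 0.42, edgeR adjusted p = 0.013), so that its call depends on the bulk brain libraries used.

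Of 36 other neuropeptide genes, 24 were tested, of which 22 were lower, 1 was higher and 1, Gnrh1, did not pass the test. That is 91.7% lower, against 43.9% of all genes tested. The median log2 difference was -8.19, or -6.95 with genes at 0 counts set to their floor. Of the 24, 11 had 0 counts in all microglia libraries. Those 11 passed the low-count filter through bulk brain alone and could only be called lower. The most abundant in bulk brain were Apln at 27.1 CPM, Avp at 16.3, Trh at 13.5, Oxt at 13.4 and Pnoc at 10.7 CPM, and Avp, Trh and Pnoc had 0 counts in all microglia libraries. Npff, which encodes the precursor of neuropeptide FF, was the higher one, at 2.11, 2.06, 2.0, 1.87 and 2.96 CPM in microglia, against 0.575, 0.981, 0.910, 0.505 and 0.991 CPM in bulk brain. The groups did not overlap for Npff, and the log2 difference was 1.47 ± 0.28 (SE, edgeR adjusted p = 4.3e-04). Agrp, which encodes the melanocortin antagonist agouti-related peptide, was lower at 0.389 against 1.26 CPM, or 30.8% of bulk brain, the highest share among the 22 lower genes. The annotated span of Agrp overlaps Ctcf and Ripor1 on the other strand, which were at 114 and 30.1 CPM in microglia, so its 49 microglia counts are uncertain. Qrfp, an RF-amide peptide gene, did not pass the low-count filter and was at 0.676, 1.59, 0.308, 1.79 and 0.50 CPM in microglia, against 0.110 to 0.274 CPM in bulk brain, again with no overlap. Of the peptide genes tested, Npff, Gnrh1, Agrp and Pomc stood highest in microglia relative to bulk brain.

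**Figure D4:**
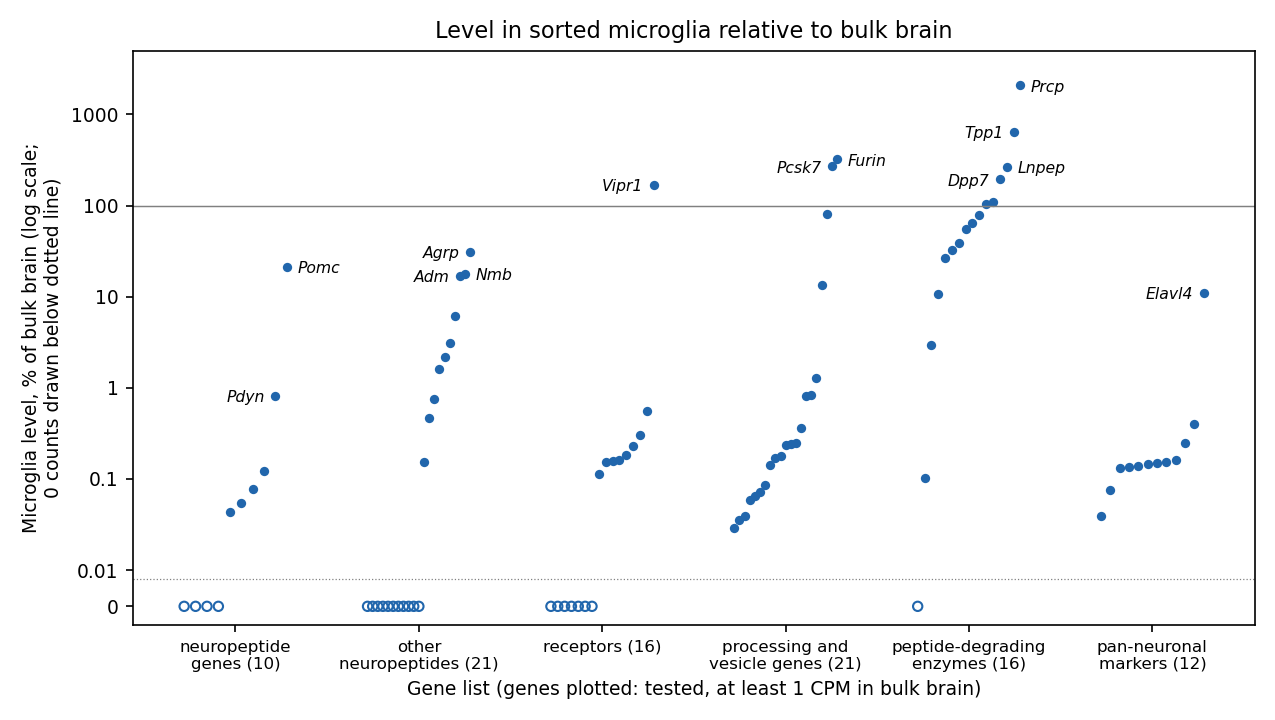
Mean microglia level as a percent of the mean bulk brain level (log axis) for tested genes that reached 1 CPM in bulk brain, by gene list, with open circles for 0 counts in microglia and a grey line at equal levels. Pomc at 21.3% stands above the other 9 neuropeptide genes and above the pan-neuronal markers, and genes above the line are Vipr1, the convertases Furin and Pcsk7, and peptide-degrading enzymes.

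The small microglia counts of these genes were mostly even numbers. In all 10 libraries, genes with 2 counts were more frequent than genes with 1, and genes with 4 counts more frequent than genes with 3. Of the 12 nonzero microglia values of the 9 genes other than Pomc, 11 were even. Whether 1 fragment was entered as 2 counts was not tested, and counting intervals and floors would then be too narrow.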

How the data were processed

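The series holds RNA-seq of 10 mouse samples, 5 of sorted CD11b-positive cells and 5 of hemi brains. The values are raw gene counts that the authors deposited in 1 table, not normalized, and gene positions and lengths come from it per the file headers. The submitters' processing notes name CASAVA, HISAT2 2.2.1, featureCounts 2.0 and build GRCm39 (mm39). For the strand setting, multi-mapping reads and the annotation release, the sources used here give nothing. Each of the 10 value columns belongs to a sample, with 0 left over.

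Genes passing edgeR's filterByExpr by group (18969) were scaled by TMM. The quasi-likelihood test of edgeR 4.0.16 (with limma 3.58.1 in R 4.3.3) was run over all 10 libraries, with no term beside group. P-values were adjusted by Benjamini-Hochberg over all genes tested, at a threshold of 0.05. CPM use TMM-scaled totals, and log2 differences are microglia minus bulk brain. The SE is the size of the log2 difference divided by the square root of the F statistic. Fold bounds for 0 counts use 3 counts over the group, and 95% intervals for 1 to 3 counts are exact Poisson. Without molecular identifiers, both cover counting error alone. The test was tested on simulated data.

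The 10 genes and the gene lists were chosen with earlier results of these data known. Named genes were the 10 members, in each of 4 pathway lists the 5 highest in bulk brain, the 5 highest in microglia and every gene called higher, and for each member that reached 5 CPM in bulk brain its 3 nearest coding genes there. Other genes named were chosen after their values were seen, and not every gene that the rule gives is named. Promoters (RefSeq, GRCm38.p6) and transcripts (GENCODE vM21) were used for sequence only, as their build differs from that of the counts. Same-numbered libraries of both groups did not deviate together (correlations -0.05 to 0.02), so numbers were not treated as pairs. Alternatives were other scalings, other low-count filters, limma-voom, DESeq2 1.42.0, the replicate number as a block, leaving out each library, and subsets of the bulk brain libraries. Levels and plots were made in Python 3.11.15 (pandas 2.3.3, numpy 2.4.6, matplotlib 3.10.9, SciPy 1.17.1).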

Additional observations from a re-analysis of the deposited data

Results flagged for a closer look

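In 4 of 16 pairs of gene and group examined, 1 library stood far from the other 4. For untied values chance gives about 1 in 20. Sst was at 0.310 CPM in microglia replicate 2, and the next highest library was at 0.0834 CPM. Penk was at 0.398 CPM and Adcyap1 at 0.0796 CPM in microglia replicate 4, with 0 CPM in the other 4 libraries. With the other 4 libraries tied at 0, any count in 1 library would stand out in this way, so that chance rate does not hold for Penk and Adcyap1. These 3 values rest on 8, 10 and 2 counts. Pomc was at 9.01 CPM in bulk brain replicate 2, and the next highest library was at 3.78 CPM.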

How the results depend on the processing

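All 10 genes were called lower under each of the 20 alternatives, with the replicate block too (10 lower, with 8037 lower and 6858 higher among all genes), and the number of genes called ranged from 7278 to 12197 lower and 6361 to 7649 higher. The replicate block changed none of the calls of the 10 genes. The median fitted log2 difference of the 10 genes, -10.80, ranged from -12.18 to -10.51 over libraries left out. Their median microglia level, 0.0489% of bulk brain with genes at 0 counts entered as 0%, ranged from 0% to 0.0611%. In both cases the first value was that without microglia replicate 4. That replicate holds all counts of Penk and Adcyap1 in microglia, whose fitted log2 differences without it were -15.43 and -12.76. The median CV over bulk brain, 45.0%, ranged from 26.3% without replicate 2 to 52.9%, and was 9.37% with replicates 3 to 5 alone, a choice added after seeing the data. For Pomc, log2 differences ranged from -2.93 to -1.71, with adjusted p from 2.9e-07 to 0.0039. The count of other neuropeptide genes called higher was 1, and 2 with no low-count filter and with bulk brain replicates 3 to 5 alone, and 1 to 2 over libraries left out, the added gene being Qrfp in each of these 8 cases (log2 2.14 to 2.65). Among genes not passing the test, Dpp4 and Ide were also called lower with median-of-ratios factors, library size alone, DESeq2 and no low-count filter. Cpd was called lower with library size alone, DESeq2 and no low-count filter. Without bulk brain replicate 2, Dpp4, Ide and Cpd were called lower, and without bulk brain replicate 1, Dpp4 and Cpd. Without microglia replicate 3, Dpp4 was called lower. The scalings by median-of-ratios factors and by library size alone moved the median log2 difference of all genes by -0.17 and -0.19, and upper quartile by 0.07. Depth limits the 4 genes at 0 counts to the upper bounds given, and leaves values of 2 to 14 counts imprecise.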
